A study of Homo sapiens with 12 samples.

Results

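The fibrillar and fibril-associated collagens described here are 10 genes, taken as the rows of the deposited expression table that carry their symbols among 32152 listed genes. They are COL1A1, COL1A2, COL3A1, COL5A1, COL5A2 and COL5A3, which encode chains of the fibril-forming collagens, and COL12A1, COL14A1, COL16A1 and COL22A1, which encode collagens that sit on or beside fibrils. The rule uses their symbols and no threshold on a measured value, and all 10 were among the 13737 protein-coding genes that were tested.

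Fibrillar collagens are long triple helices that are secreted as procollagens, trimmed at both ends and packed side by side into banded fibrils. Type I collagen joins chains of COL1A1 with a chain of COL1A2 and makes up most of the fibril mass of stroma, type III collagen is a homotrimer of COL3A1 that is laid down with it, and type V collagen starts fibril assembly and limits fibril width. The fibril-associated collagens have interrupted helices and bind the fibril surface, where they link fibrils to other matrix molecules or to each other. In breast tumors, fibrillar collagen is known for its deposition by fibroblasts and by carcinoma cells with mesenchymal traits.

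RNA was sequenced from MDA-MB-231 and Hs-578T, both established human lines of triple-negative breast cancer with a mesenchymal shape. In each line 2 libraries came from parental control cells, 2 from cells labelled ERK5-ko, in which CRISPR/Cas9 guides were aimed at MAPK7, the gene of the kinase ERK5, and 2 from cells labelled MEK5DD, a form of the upstream kinase MEK5 with constant activity. The MDA-MB-231 ERK5-ko cells were grown from 1 surviving clone and the Hs-578T ERK5-ko cells from sorted clones, so a difference from parental cells cannot be told apart from a difference of the clone. The vector of MEK5DD and its promoter are not given in the sources used here. The labels also number the libraries after the letter p, with 29 and 30 for MDA-MB-231 parental cells, 7 and 8 for ERK5-ko and 10 and 11 for MEK5DD, and with 83 and 84 for Hs-578T parental cells and 8 and 9 for both engineered groups, so this number and the label cannot be told apart either.

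The libraries held 20248162 to 27791195 reads, and each of the 12 lay closer to the parental cells of its own line. ESR1 had at most 7 reads and PGR at most 23 in any library, while ERBB2 lay between 27.8 and 56.8 RPKM. RPKM is the number of reads per kilobase of gene length, scaled to the total reads of the library. MAPK7 RNA showed no decrease under the ERK5-ko label, at 16.3 and 17.8 RPKM against 13.3 and 14.3 in MDA-MB-231 and at 17.8 and 18.1 against 13.97 and 15.98 in Hs-578T (log2 fold changes 0.29 and 0.26, adjusted p = 0.071 and 0.0624, limma), so these libraries are called by their label throughout. The study reported loss of ERK5 protein by Western blot in the ERK5-ko cells of both lines, and the RNA values do not measure protein. MAP2K5, the gene of MEK5, was higher in the libraries labelled MEK5DD by 3.77 on the log2 scale in MDA-MB-231 (SE 0.102, adjusted p = 3.31e-10, limma) and by 0.50 in Hs-578T (SE 0.102, adjusted p = 0.00492, limma). In Hs-578T all 6 fibroblast markers looked up (PDGFRB, PDGFRA, FAP, THY1, DCN and LUM) were present, with a sum of 2640 to 2902 RPKM in parental cells against 15.2 to 15.6 in MDA-MB-231, where 4 of the 6 had at most 3 reads in parental cells. In bulk RNA, fewer cells that make a collagen and less collagen RNA in each cell cannot be told apart.

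Promoter sequence in RefSeq on GRCh38.p14, 250 bases before to 50 after the transcription start, was at hand for 4 of the 10 genes. All 4 are shown, and the other 6 had no match, so the choice was made by availability. Among the 4, COL5A1 and COL16A1 had similar profiles across the libraries (r = 0.96), from which those of COL5A3 and COL12A1 differed. Capitals mark each match, on either strand, to any of 7 motifs. The TATA box was searched as TATAAA, and the CCAAT box by the letters of its name. For the GC box, which SP1-type factors bind, the letters were GGGCGG. An AP-1 site was taken as TGANTCA. The SMAD box was searched as GTCTG. The E-box known to be bound by ZEB and SNAI factors was searched as CAGGTG, and the MEF2 site was searched too. All are written 5′ to 3′ in the direction of transcription.
COL5A1 (chr9:134641553-134641852, plus strand): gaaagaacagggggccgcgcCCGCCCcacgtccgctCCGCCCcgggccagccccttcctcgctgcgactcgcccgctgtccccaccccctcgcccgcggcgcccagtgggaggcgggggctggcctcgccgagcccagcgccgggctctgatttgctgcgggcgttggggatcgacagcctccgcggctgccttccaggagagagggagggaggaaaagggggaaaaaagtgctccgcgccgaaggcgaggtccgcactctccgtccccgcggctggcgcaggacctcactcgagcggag
COL16A1 (chr1:31703968-31704267, minus strand): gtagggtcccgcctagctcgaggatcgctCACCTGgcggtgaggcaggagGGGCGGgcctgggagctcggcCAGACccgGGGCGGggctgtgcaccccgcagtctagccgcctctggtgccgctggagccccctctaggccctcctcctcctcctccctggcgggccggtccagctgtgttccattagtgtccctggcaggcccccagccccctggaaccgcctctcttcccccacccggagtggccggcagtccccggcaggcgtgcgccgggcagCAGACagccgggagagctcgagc
COL5A3 (chr19:10010455-10010754, minus strand): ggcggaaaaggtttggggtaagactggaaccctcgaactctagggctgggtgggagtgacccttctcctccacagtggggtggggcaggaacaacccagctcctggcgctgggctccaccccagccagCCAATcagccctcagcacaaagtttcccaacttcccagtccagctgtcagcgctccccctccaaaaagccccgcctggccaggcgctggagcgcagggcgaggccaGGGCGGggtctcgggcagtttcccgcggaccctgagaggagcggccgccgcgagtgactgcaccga
COL12A1 (chr6:75206004-75206303, minus strand): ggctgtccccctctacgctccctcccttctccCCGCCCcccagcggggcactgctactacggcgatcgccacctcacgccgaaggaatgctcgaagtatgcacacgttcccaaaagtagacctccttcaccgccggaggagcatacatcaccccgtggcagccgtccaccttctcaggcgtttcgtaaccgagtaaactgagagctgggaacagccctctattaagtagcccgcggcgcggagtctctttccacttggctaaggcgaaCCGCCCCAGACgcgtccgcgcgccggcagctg
The promoter of COL5A1 held 2 GC boxes and no other motif, and a 2nd RefSeq start of the gene, 2 bases downstream, held the same. COL16A1 held 2 GC boxes, 2 SMAD boxes and the only E-box of the 4 promoters. COL12A1 held 2 GC boxes and 1 SMAD box, which abuts a GC box downstream of the start, and COL5A3 held 1 GC box and the only CCAAT box. Among all 35116 promoters of the table, a GC box was found in 45% and a SMAD box in 45.3%, so these matches are common. A CCAAT box was found in 34.6%, an E-box of this kind in 20.6%, a TATA box in 11.5%, an AP-1 site in 7.71% and a MEF2 site in 2.73% of promoters. The TATA box, the AP-1 site and the MEF2 site had no match in the 4 windows, and no matches overlapped. The share of G and C was 74.0% for COL5A1, 73.7% for COL16A1, 66.7% for COL5A3 and 63.3% for COL12A1, against a median of 58.7% over all promoters.

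In parental cells the 2 lines were far apart in collagen RNA. The 10 genes together took 2.68% and 3.29% of all reads in Hs-578T parental libraries and 0.0441% and 0.0422% in MDA-MB-231. COL1A1 (chromosome 17, 50183289 to 50201632, minus strand), the α1 chain of type I collagen, was at 10017 and 12848 RPKM in Hs-578T and at 5.98 and 5.82 in MDA-MB-231. COL1A2 (chromosome 7, 94394561 to 94431232, plus strand), the α2 chain, was at 4496 and 5016 RPKM in Hs-578T and at 6.81 and 6.80 in MDA-MB-231. COL3A1 (chromosome 2, 188974320 to 189012746, plus strand) was at 2246 and 2588 RPKM in Hs-578T, while MDA-MB-231 parental cells had 2 and 5 reads of it. The ratio of the mean RPKM was 1938 for COL1A1 and 699 for COL1A2.

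The chains of type V collagen were split. COL5A1 (chromosome 9, 134641774 to 134844843, plus strand), the α1 chain, was the most abundant of the 10 genes in MDA-MB-231 at 119 and 114 RPKM, and in Hs-578T it was at 447 and 668 RPKM. Its partner COL5A2 (chromosome 2, 189031896 to 189179879, minus strand), which lies 19149 bases from COL3A1, was at 169 and 214 RPKM in Hs-578T but at 0.226 and 0.163 RPKM, 26 and 21 reads, in MDA-MB-231. COL5A3 (chromosome 19, 9959561 to 10010471, minus strand), the α3 chain, was at 71.9 and 80.7 RPKM in Hs-578T and had 0 reads in all 6 MDA-MB-231 libraries, so against the floor of 3 reads in each library it was at least 2307-fold higher in Hs-578T parental cells. MDA-MB-231 cells thus carried RNA of the α1 chain with little of α2 and none detected of α3.

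The fibril-associated genes also were lower in MDA-MB-231, but by less for COL12A1 (chromosome 6, 75084326 to 75206051, minus strand), which was at 17.5 and 16.4 RPKM against 37.7 and 86.8 in Hs-578T. COL16A1 (chromosome 1, 31652247 to 31704319, minus strand) was at 4.11 and 3.82 RPKM in MDA-MB-231 and at 143 and 176 in Hs-578T. COL14A1 (chromosome 8, plus strand) was at 5.41 and 7.54 RPKM in Hs-578T, with 7 and 9 reads in MDA-MB-231. COL22A1 (chromosome 8, minus strand), a collagen known from tissue junctions such as that of muscle and tendon, was near the limit of detection in Hs-578T parental cells, at 0.332 and 0.448 RPKM or 18 and 22 reads, and had 0 reads in all 6 MDA-MB-231 libraries, a ratio of 8.06 against the same floor.

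All 10 genes were higher in Hs-578T than in MDA-MB-231 parental cells at an adjusted p under 0.05 (limma on log2(RPKM + 0.5), Benjamini-Hochberg over all tested genes), where 31.3% of tested genes were higher and 46% lower. Of the 10, 5 (COL3A1, COL5A2, COL5A3, COL14A1 and COL22A1) reached the RPKM of 0.5 that the filter asks for in Hs-578T only, so the count says little. COL3A1, COL5A2, COL5A3 and COL14A1 reached it in all Hs-578T libraries and so had to differ. COL22A1 reached it only in the Hs-578T ERK5-ko libraries and was at 0.332 and 0.448 RPKM in parental cells. Of the genes that passed in both lines, COL1A1 had the highest log2 fold change, 10.79 (SE 0.150, adjusted p = 2.77e-13), and COL12A1 the lowest, 1.73 (SE 0.299, adjusted p = 0.000236). The median of all tested genes was -0.19 in this comparison and -0.02 after median-ratio scaling, and 40.5% of all calls were higher in Hs-578T against 51.0% with voom on the recovered reads.

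**Figure D1:**
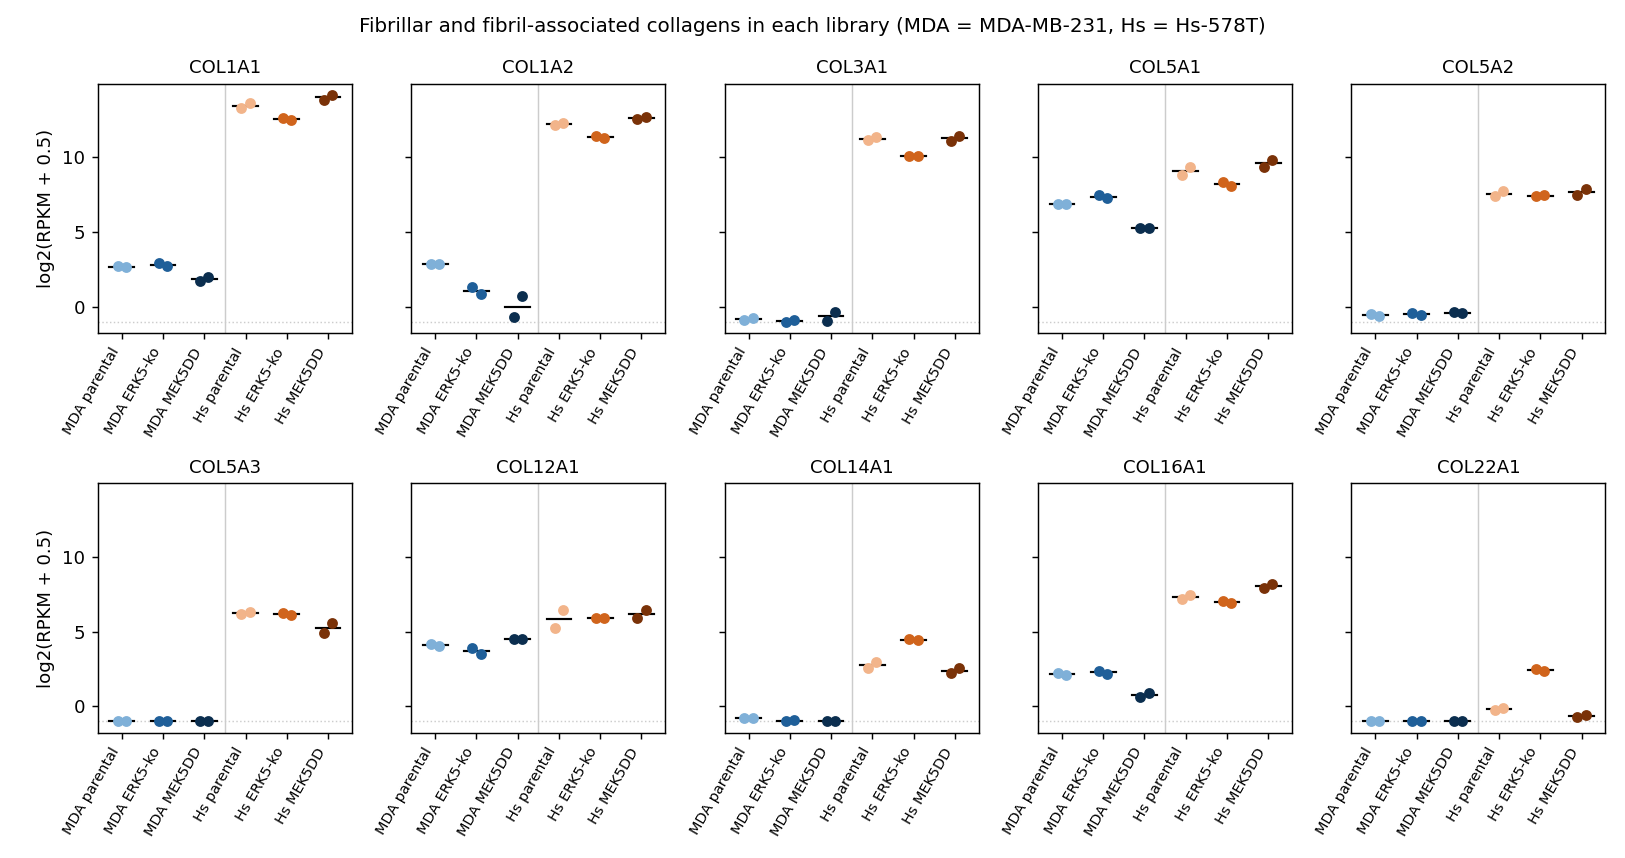
Level of each of the 10 genes in the 12 libraries, as log2(RPKM + 0.5), with 1 point per library, a black line at the mean of the 2 libraries of a group and a dotted line at 0 reads. The Hs-578T points stand above the MDA-MB-231 points for every gene, and within Hs-578T the ERK5-ko points are the lowest for COL1A1, COL1A2, COL3A1, COL5A1 and COL16A1 and the highest for COL14A1 and COL22A1.

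The order of the genes by RPKM in Hs-578T parental cells was COL1A1, COL1A2, COL3A1, COL5A1, COL5A2, COL16A1, COL5A3, COL12A1, COL14A1 and COL22A1. The gene length behind the deposited RPKM values was close to the mean length of all annotated transcripts of a gene, short fragments included, which for COL1A1 is 1144 bases where the longest transcript has 6727. With reads per kilobase of the longest transcript instead, COL1A1 stood at 1944 ± 340 (SD, n = 2), COL1A2 at 1420 ± 110, COL3A1 at 907 ± 90.8 and COL5A1 at 180.3 ± 50.5, scaled to the library total as RPKM is. On this scale the order was the same except that COL5A3 (42.9 ± 3.50) and COL16A1 (38.0 ± 5.64) changed places, and these 2 overlapped within their spread. For 1 gene, the ratio of RPKM between libraries does not depend on its length. Tested fold changes of genes with low RPKM do, since a constant was added to each RPKM before the logarithm. Whether a low gene passed the filter on RPKM depends on the length too.

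To ask how the collagens differed where ERK5 was targeted, libraries labelled ERK5-ko were set against parental cells of their line. In Hs-578T 3 of the 6 fibrillar genes (COL1A1, COL3A1 and COL5A1) were lower and 2 of the 4 fibril-associated genes (COL14A1 and COL22A1) were higher. Of all tested genes 19.7% were lower and 19.7% higher, and with so few genes these counts were not read as a result about either class. COL1A1 was at 6488 and 5818 RPKM in ERK5-ko against 10017 and 12848 in parental cells, a log2 fold change of -0.88 (SE 0.150, adjusted p = 0.000821, limma). COL3A1 was at 1067 and 1068 RPKM against 2246 and 2588, a log2 fold change of -1.18 (SE 0.172, adjusted p = 0.000311). COL5A1 was at 318 and 270 RPKM against 447 and 668, a log2 fold change of -0.90 (SE 0.185, adjusted p = 0.00271). In each of these 3 genes both ERK5-ko libraries stood below both parental libraries, which adds no support to the test on these same libraries.

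COL1A2 had nearly the same size of difference as COL1A1, 2774 and 2536 RPKM against 4496 and 5016 with no overlap, but did not pass in the fit over both lines (log2 fold change -0.84, SE 0.322, adjusted p = 0.0581). That fit shares 1 spread per gene over the 12 libraries, and the MDA-MB-231 MEK5DD libraries differed widely in COL1A2, at 0.116 and 1.11 RPKM. With Hs-578T fitted alone the adjusted p was 0.0127, and without MDA-MB-231 MEK5DD replicate 1 it was 0.00167. It also passed with median-ratio scaling (0.0487), a pseudocount of 1 (0.0134) and voom (0.0104).

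The opposite direction was seen in COL14A1, which binds the fibril surface and was at 22.0 and 21.3 RPKM in ERK5-ko against 5.41 and 7.54 in parental cells, a log2 fold change of 1.69 (SE 0.154, adjusted p = 1.12e-05). COL22A1 was at 5.14 and 4.77 RPKM, 320 and 274 reads, against 0.332 and 0.448 RPKM. Its log2 fold change was 2.62 on the scale with a pseudocount of 0.5 (SE 0.101, adjusted p = 1.98e-08), and the ratio of the mean RPKM was 12.7. COL22A1 reached an RPKM of 0.5 only in these 2 libraries, so it was tested only because it was high there. In both genes the ERK5-ko libraries stood above the parental libraries with no overlap, which adds no support to the test on these same libraries.

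The other members did not pass. COL16A1 was at 130 and 119 RPKM against 143 and 176, a log2 fold change of -0.35 (adjusted p = 0.0721), which passed with voom (adjusted p = 0.0269). COL5A2 was at 167 and 177 RPKM against 169 and 214, and COL5A3 at 75.4 and 70.2 against 71.9 and 80.7. COL12A1 was at 61.1 and 60.2 RPKM, between its parental libraries at 37.7 and 86.8. Leaving out Hs-578T parental replicate 1 gave a log2 fold change of -0.51 for COL12A1 and leaving out replicate 2 gave 0.68, so the parental pair decides its sign.

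By the adjusted p alone, 2 of the 10 genes were higher and 3 were lower in Hs-578T ERK5-ko, where 19.7% of all tested genes were higher and 19.7% lower. By the fold thresholds of the study (above 1.5 or below 0.5 with an adjusted p under 0.05), 2 were higher and 1, COL3A1, was lower, against 9.35% and 3.27% of all tested genes. The median log2 fold change of the 10 genes was -0.25, against 0.01 for all tested genes. With quantile normalization 2 were higher and 2 lower, with COL1A1 at -0.32 (adjusted p = 0.148), and with voom 2 were higher and 5 lower. The sum of the 6 fibroblast markers was 2640 to 2902 RPKM in parental cells and 1751 to 1876 in ERK5-ko, and 3 of the 6 (DCN, FAP and LUM) were lower. The sum of 4 epithelial markers (EPCAM, KRT8, KRT18 and CDH1) was 189 to 264 RPKM in parental cells and 577 to 626 in ERK5-ko, with 2 of the 4 higher and 1 (KRT8) lower, and EPCAM had at most 2 reads. Most of that sum was KRT18, at 141 to 213 RPKM in parental cells and 547 to 596 in ERK5-ko. The sum of 5 mesenchymal markers (VIM, FN1, CD44, SPARC and AXL) was 14913 to 16221 and 15214 to 15458 RPKM, with 2 of the 5 (CD44 and AXL) higher and 0 lower. The part of these lists in the collagen differences was not tested.

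In MDA-MB-231 the libraries labelled ERK5-ko differed from parental cells in 1 member. COL1A2 was at 1.98 and 1.28 RPKM, 80 and 57 reads, against 6.81 and 6.80, 301 and 338 reads, a log2 fold change of -1.80 (SE 0.322, adjusted p = 0.00325, limma). COL1A1, the other chain of the same trimer, was at 6.93 and 6.02 RPKM against 5.98 and 5.82, a log2 fold change of 0.12 (adjusted p = 0.648). Of the 2 chains of type I collagen, COL1A2 alone passed the test. The study listed COL1A1 among the collagens with less RNA in MDA-MB-231 ERK5-ko cells and reported it lower by qRT-PCR. The deposited RPKM values do not show that decrease, and the cause of the disagreement was not tested.

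COL5A1 was at 175 and 152 RPKM against 119 and 114, with no overlap and a log2 fold change of 0.48 that did not pass (SE 0.185, adjusted p = 0.0983). Blocking on the replicate number gave an adjusted p of 0.0481, and with MDA-MB-231 fitted alone it was 0.000164. COL12A1 was at 14.3 and 10.9 RPKM against 17.5 and 16.4 (log2 fold change -0.43, adjusted p = 0.375), and it passed with MDA-MB-231 fitted alone (adjusted p = 0.00652). COL16A1 was at 4.76 and 3.99 RPKM against 4.11 and 3.82. COL14A1 had 1 and 2 reads against 7 and 9, which against the floor is at least 2.40-fold lower. Its test did not pass (adjusted p = 0.466) but did with a pseudocount of 0.1 (adjusted p = 0.0365). COL3A1 had 0 and 2 reads against 2 and 5.

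In total 0 of the 10 genes were higher and 1 was lower by the adjusted p, in a comparison in which 6.91% of all tested genes were higher and 10.4% lower. At an unadjusted p under 0.05 COL5A1 was higher, and it was also the member called higher with MDA-MB-231 fitted alone and with the block. By the fold thresholds 0 were higher and 1 was lower, against 2.8% and 1.07% of all genes. Of all calls 39.9% were higher, and 54.5% with median-ratio scaling. The sum of the epithelial markers was 1052 to 1148 RPKM in parental cells and 1843 to 1860 in ERK5-ko, with 3 of the 4 higher. The sum of the mesenchymal markers was 3189 to 3394 and 3338 to 3440 RPKM, with 1 of the 5 (SPARC) lower. Of the 6 fibroblast markers 0 were higher and 0 lower. The part of these lists in the collagen values was not tested.

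The difference between the lines was tested as such, as the ERK5-ko log2 fold change in MDA-MB-231 minus that in Hs-578T. It was positive for COL5A1 (1.38, SE 0.261, adjusted p = 0.00173), COL3A1 (1.06, SE 0.243, adjusted p = 0.00544) and COL1A1 (1.01, SE 0.212, adjusted p = 0.00329), which were lower in Hs-578T ERK5-ko only. It was negative for COL22A1 (-2.62, SE 0.143, adjusted p = 4.5e-07) and COL14A1 (-1.87, SE 0.218, adjusted p = 7.01e-05). For COL3A1, COL14A1 and COL22A1 the MDA-MB-231 side held at most 9 reads in any parental or ERK5-ko library, so their difference is set by Hs-578T alone. COL22A1 was also tested only because it was high in Hs-578T ERK5-ko. Of all tested genes 18.3% had a positive and 21.5% a negative difference, and with quantile normalization 1 member was positive and 2 were negative. The call for COL3A1 was lost with a pseudocount of 0.1 (adjusted p = 0.341), with quantile normalization (adjusted p = 0.121) and with voom, where the difference was -0.31.

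**Figure D2:**
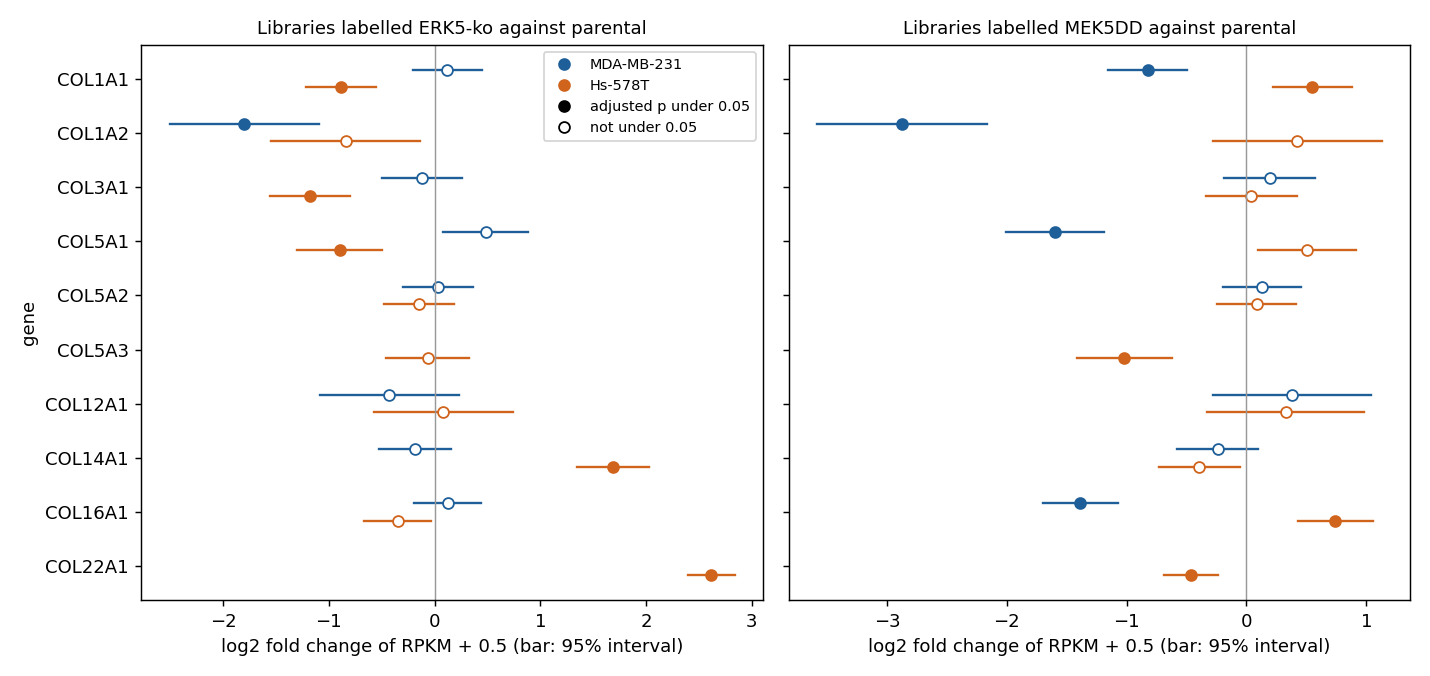
Log2 fold change of each gene against parental cells of the same line, for libraries labelled ERK5-ko and for those labelled MEK5DD, with 95% intervals from the fit over 12 libraries and filled points at an adjusted p under 0.05. COL5A3 and COL22A1 have no MDA-MB-231 point since all 6 libraries are at 0 reads. In the MEK5DD panel COL1A1 and COL16A1 lie below 0 in MDA-MB-231 (-0.82 and -1.39) and above 0 in Hs-578T (0.55 and 0.74).

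Libraries labelled MEK5DD were set against the same parental libraries, so the comparisons share their controls. In MDA-MB-231 4 of the 8 members with reads were lower, where 23.8% of all tested genes were lower. COL1A1 was at 2.76 and 3.50 RPKM against 5.98 and 5.82 in parental cells, a log2 fold change of -0.82 (SE 0.150, adjusted p = 0.000985, limma). COL1A2 was at 0.116 and 1.11 RPKM, 5 and 55 reads, against 6.81 and 6.80, a log2 fold change of -2.87 (SE 0.322, adjusted p = 2.74e-05). COL5A1 was at 38.5 and 38.0 RPKM against 119 and 114, a log2 fold change of -1.60 (SE 0.185, adjusted p = 3.52e-05). COL16A1 was at 1.03 and 1.40 RPKM, 34 and 53 reads, against 4.11 and 3.82, a log2 fold change of -1.39 (SE 0.143, adjusted p = 1.39e-05).

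All 4 genes had every MEK5DD library below every parental library, which adds no support, since they were picked by the test on these libraries. The 2 MEK5DD libraries were close in COL5A1, the best counted of the 4 with at least 2535 reads, and far apart in COL1A2. MDA-MB-231 MEK5DD replicate 2 also held more reads of some genes that are very high in Hs-578T, with 17 reads of COL3A1 against 0 to 5 in the other 5 MDA-MB-231 libraries. It held 3 reads of THY1 and 4 of DCN, fibroblast markers with at most 2 and 1 reads in the other 5, and 6 of LUM, which had 0 reads in MEK5DD replicate 1 but 26 to 30 in the 4 parental and ERK5-ko libraries. The part of this library in the result was not tested, and without it the log2 fold change was -3.57 for COL1A2 and -0.97 for COL1A1.

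COL12A1 was at 22.4 and 21.9 RPKM against 17.5 and 16.4, a log2 fold change of 0.38 that did not pass (adjusted p = 0.348) but did with MDA-MB-231 fitted alone (adjusted p = 0.00756). COL14A1 had 0 reads in both MEK5DD libraries against 7 and 9, a ratio of 2.61 if MEK5DD is set to the floor of 3 reads in each library. The test did not pass (adjusted p = 0.246), though it did with a pseudocount of 0.1 (adjusted p = 0.0029) and with voom (adjusted p = 0.00208). COL5A2 stayed at 0.286 and 0.233 RPKM. By the adjusted p 0 of the 10 genes were higher and 4 lower, where 17.5% of all tested genes were higher and 23.8% lower. By the fold thresholds 0 were higher and 3 lower (COL1A2, COL5A1 and COL16A1), against 7.64% and 6.31% of all tested genes. Of all calls 42.5% were higher, and 52.9% with quantile normalization.

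The sum of the mesenchymal markers (VIM, FN1, CD44, SPARC and AXL) was 3189 to 3394 RPKM in MDA-MB-231 parental cells and 5636 to 5671 in MEK5DD, with 4 of the 5 higher. The sum of the fibroblast markers was 15.2 to 15.6 and 2.28 to 2.32 RPKM, with 2 of the 6 (PDGFRB and LUM) lower. Most of that sum was PDGFRB, at 14.3 to 14.9 RPKM in parental cells and 1.76 to 2.15 in MEK5DD. The sum of the epithelial markers was 1052 to 1148 and 931 to 965 RPKM, with 2 of the 4 (EPCAM and CDH1) lower and 0 higher. The part of these in the collagen differences was not tested.

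In Hs-578T the libraries labelled MEK5DD had more COL1A1 and COL16A1 and less COL5A3 and COL22A1. COL16A1 was at 244 and 288 RPKM against 143 and 176 in parental cells, a log2 fold change of 0.74 (SE 0.143, adjusted p = 0.00386). COL1A1 was at 14841 and 18528 RPKM against 10017 and 12848, a log2 fold change of 0.55 (SE 0.150, adjusted p = 0.0222). This last call was lost without Hs-578T parental replicate 1 (0.37, adjusted p = 0.131), without Hs-578T MEK5DD replicate 2 (0.39, adjusted p = 0.0883) and with Hs-578T fitted alone (adjusted p = 0.197). COL5A3 was at 29.1 and 47.9 RPKM against 71.9 and 80.7, a log2 fold change of -1.02 (SE 0.180, adjusted p = 0.00234). COL22A1 had 6 and 8 reads against 18 and 22, a log2 fold change of -0.46 (SE 0.101, adjusted p = 0.00751), which was lost with Hs-578T fitted alone (adjusted p = 0.0922) and without Hs-578T parental replicate 2 (-0.37, adjusted p = 0.057).

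COL5A1 was at 662 and 909 RPKM against 447 and 668, overlapping by a narrow margin, and its log2 fold change was 0.50 (adjusted p = 0.0712), which passed with the replicate number as a block (adjusted p = 0.0348). COL1A2 was at 6011 and 6770 RPKM against 4496 and 5016 with no overlap (log2 fold change 0.43, SE 0.322, adjusted p = 0.379). COL3A1 was at 2222 and 2769 RPKM, on either side of its parental libraries, and COL5A2 at 175 and 233. COL14A1 was at 4.11 and 5.47 RPKM against 5.41 and 7.54, and its log2 fold change was -0.39 (adjusted p = 0.0911), which passed with the block (adjusted p = 0.0437). COL12A1 was at 59.1 and 87.6 RPKM, which overlapped its parental libraries.

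By the adjusted p 2 of the 10 genes were higher and 2 lower in Hs-578T MEK5DD, where 6.44% of all tested genes were higher and 17% lower. By the fold thresholds 1 (COL16A1) was higher and 1 (COL5A3) was lower, against 2.9% and 1.49% of all tested genes. The median log2 fold change was 0.21 over the 10 genes and -0.08 over all tested genes. Of all calls 27.5% were higher, and 46.0% with median-ratio scaling. With quantile normalization 1 member was higher and 2 were lower (the log2 fold change of COL1A1 was then 0), and with median-ratio scaling 3 were higher and 2 lower. The sum of the mesenchymal markers was 14913 to 16221 RPKM in Hs-578T parental cells and 20491 to 20614 in MEK5DD, with 1 of the 5 (SPARC) higher, and the sum of the fibroblast markers was 2640 to 2902 and 2684 to 3051 RPKM, with 1 of the 6 (FAP) higher. The sum of the epithelial markers was 189 to 264 and 229 to 254 RPKM, with 1 of the 4 (KRT8) higher. Of the endothelial markers PECAM1 was lower, and it was also lower in ERK5-ko and MEK5DD of MDA-MB-231 but not in Hs-578T ERK5-ko. The part of these in the collagen differences was not tested.

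The difference between the lines was tested for MEK5DD too. The log2 fold change in MDA-MB-231 minus that in Hs-578T was -3.30 for COL1A2 (SE 0.456, adjusted p = 0.000192), -2.13 for COL16A1 (SE 0.202, adjusted p = 1.37e-05), -2.10 for COL5A1 (SE 0.261, adjusted p = 9.21e-05) and -1.37 for COL1A1 (SE 0.212, adjusted p = 0.000432). COL1A1 and COL16A1 passed in opposite directions in the 2 lines. It was 1.02 for COL5A3 (SE 0.255, adjusted p = 0.0083) and 0.46 for COL22A1 (SE 0.143, adjusted p = 0.0238), which have no reads in MDA-MB-231. Of all tested genes 21.3% had a positive and 18.2% a negative difference, 1 member was positive and 3 were negative with quantile normalization, and 0 were positive and 5 negative with voom.

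The 2 engineered groups of a line were also set against each other without the parental libraries. In Hs-578T 8 of the 10 genes differed. Lower in ERK5-ko than in MEK5DD were COL1A1 (log2 fold change -1.43, SE 0.150, adjusted p = 1.6e-05), COL5A1 (-1.40, SE 0.185, adjusted p = 9.1e-05), COL1A2 (-1.27, SE 0.322, adjusted p = 0.00708), COL3A1 (-1.22, SE 0.172, adjusted p = 0.000154) and COL16A1 (-1.09, SE 0.143, adjusted p = 8.76e-05). Higher were COL22A1 (3.08, adjusted p = 3.04e-09), COL14A1 (2.08, adjusted p = 1.19e-06) and COL5A3 (0.95, adjusted p = 0.00117). COL22A1 was tested only because it was high in these ERK5-ko libraries. COL5A2 and COL12A1 overlapped between the groups. Of all tested genes 30.7% were higher and 19.2% lower, 61.5% of all calls were higher against 48.7% with median-ratio scaling, and with quantile normalization 3 members were higher and 3 lower. The call for COL1A2 was lost without Hs-578T ERK5-ko replicate 2 (-1.20, adjusted p = 0.0524), with a pseudocount of 0.1 (adjusted p = 0.0784) and with quantile normalization (adjusted p = 0.0508).

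In MDA-MB-231 the ERK5-ko libraries were higher than the MEK5DD libraries in COL5A1 (2.08, SE 0.185, adjusted p = 2.53e-06), COL16A1 (1.51, SE 0.143, adjusted p = 4.18e-06), COL1A2 (1.08, SE 0.322, adjusted p = 0.0139) and COL1A1 (0.95, SE 0.150, adjusted p = 0.000235). COL12A1 was lower (-0.81, SE 0.299, adjusted p = 0.0389). So 4 of the 10 genes were higher and 1 was lower, where 27.1% of all tested genes were higher and 27.9% lower. The call for COL1A2 was lost without ERK5-ko replicate 1 (0.84, adjusted p = 0.116) and without MEK5DD replicate 1 (0.38, adjusted p = 0.113). That for COL12A1 was lost without any 1 of 8 libraries, at adjusted p values up to 0.212, and with no filter (adjusted p = 0.0812).

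The ratio of the 2 chains of a trimer was followed in each library. In Hs-578T the ratio of COL1A1 to COL1A2 in RPKM was steady, at 2.23 and 2.56 in parental cells, 2.34 and 2.29 in ERK5-ko and 2.47 and 2.74 in MEK5DD. In MDA-MB-231 it was 0.878 and 0.856 in parental cells, 3.50 and 4.72 in ERK5-ko and 23.8 and 3.16 in MEK5DD, so it varied where both genes were low and no engineered library came near the parental pair. With reads per base of the longest transcript of each gene, an alternative chosen after seeing the data, the Hs-578T ratios lay between 1.27 and 1.56, and the MDA-MB-231 parental ratios were 0.5002 and 0.4876.

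The ratio of COL5A1 to COL5A2 in Hs-578T was 2.64 and 3.12 in parental cells, 1.90 and 1.53 in ERK5-ko and 3.78 and 3.90 in MEK5DD, with no overlap between the 3 groups. COL5A2 lay between 167 and 233 RPKM in all 6 libraries. In MDA-MB-231 the ratio was 526 and 704 in parental cells, 706 and 884 in ERK5-ko and 134 and 163 in MEK5DD, where COL5A2 had 20 to 32 reads in every library.

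**Figure D3:**
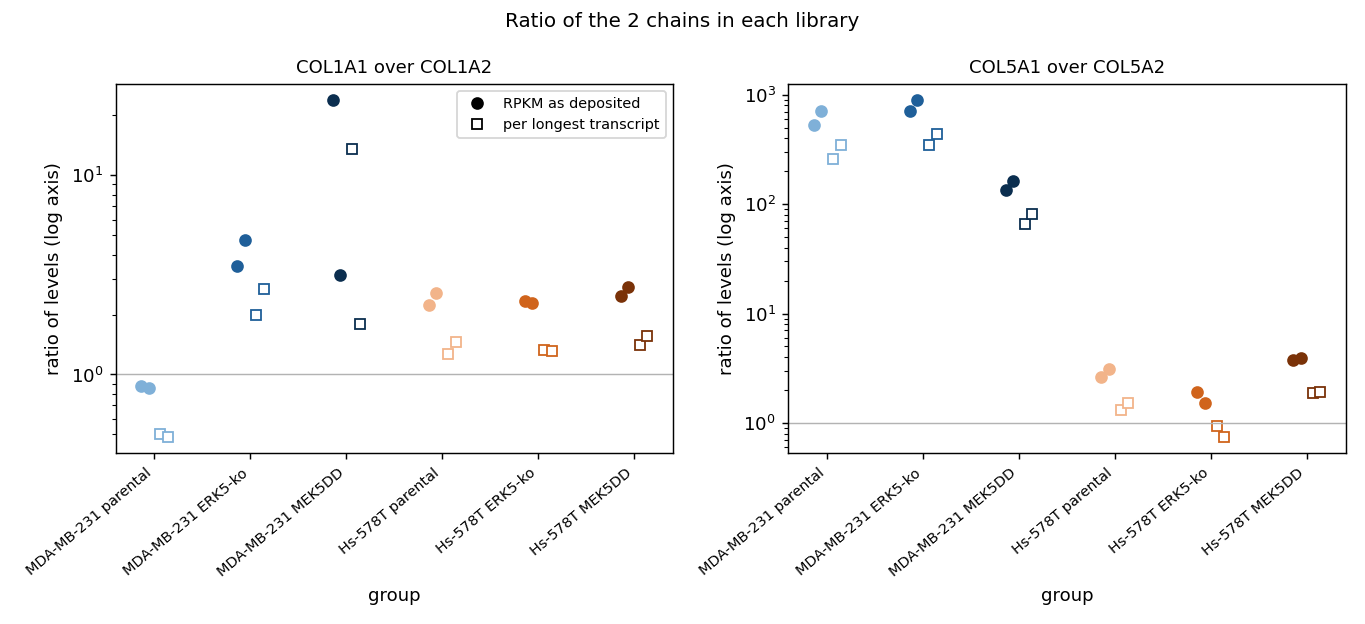
Ratio of COL1A1 to COL1A2 and of COL5A1 to COL5A2 in each library on a log axis, from the deposited RPKM (filled circles) and per longest transcript (open squares). The Hs-578T ratios of the type I chains stay between 2.23 and 2.74 in RPKM, while those of MDA-MB-231 spread from 0.856 to 23.8.

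The profiles of the genes were compared by Pearson's r of log2(RPKM + 0.5) over the 12 libraries after the mean of each line was taken out, as a description with no test, since the libraries share cells and controls. Of the 45 pairs, 4 had an r above 0.9. They were COL14A1 with COL22A1 (0.98), COL5A1 with COL16A1 (0.96), COL1A1 with COL5A1 (0.92) and COL1A1 with COL16A1 (0.91). COL1A2 followed this group less closely, at 0.76 with COL16A1 and 0.70 with COL1A1. COL3A1 and COL22A1 were opposed, at -0.90. The values of COL22A1 with COL14A1 and with COL3A1 rest on Hs-578T, since COL22A1 had no reads in any MDA-MB-231 library. COL5A2 was most like COL12A1 (0.74), and the median over all pairs was -0.05.

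Within the 6 Hs-578T libraries alone, COL1A1 had an r of 0.99 with both COL1A2 and COL5A1, 0.95 with COL16A1 and 0.93 with COL3A1, and -0.89 with COL14A1 and -0.93 with COL22A1. COL1A1 and COL16A1 had an r of 0.996 within the 6 MDA-MB-231 libraries.

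**Figure D4:**
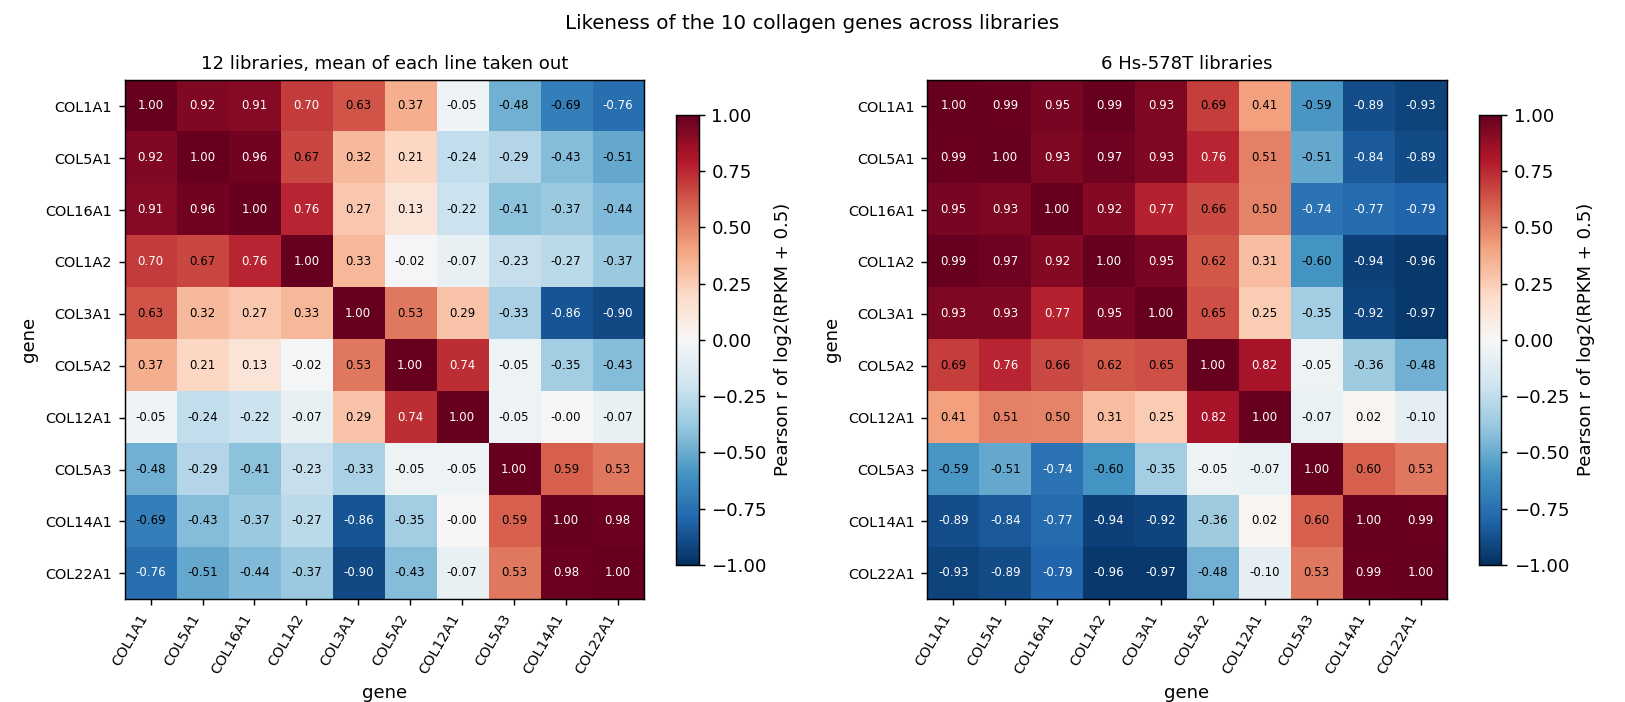
Pearson's r of log2(RPKM + 0.5) between the 10 genes, over the 12 libraries with the mean of each line taken out and over the 6 Hs-578T libraries, with red for positive and blue for negative values. In both panels COL1A1, COL5A1 and COL16A1 form a block with r of at least 0.91, and COL14A1 and COL22A1 form another (0.98 and 0.99).

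Outside the 10 genes, the tested genes most like COL1A1 were NUDCD3 (r = 0.98), KIAA0895 (0.97) and LZTS2 (0.97), and those most like COL1A2 were RP5-877J2.1 (0.95), CMTM3 (0.95) and RASGRF1 (0.92). COL3A1 was most like NFATC4 (0.96), PLEKHN1 (0.95) and RNF157 (0.95). COL5A1 was most like LTA4H (0.99), EXOC4 (0.98) and STEAP2 (0.98), and COL16A1 like STEAP2 (0.98), PRSS33 (0.98) and OPLAH (0.97), so STEAP2 was near both. COL5A2 was most like CUL4A, RAB3GAP2 and SIK2 (0.93, 0.93 and 0.92), COL12A1 like MYCBP2, GLI3 and PPFIBP1 (0.94, 0.93 and 0.93), COL5A3 like TMTC1, FLRT1 and PAX9 (0.99, 0.99 and 0.98) and COL14A1 like BRI3BP, TCEAL5 and DCC (0.99, 0.99 and 0.99). In MDA-MB-231 COL5A3 had no reads, COL14A1 at most 9 and COL3A1 at most 17 in any library, so the values of these genes rest mostly on Hs-578T. Some of the nearest genes were low themselves, with mean RPKM of 0.363 for FLRT1, 0.388 for DCC, 0.673 for TCEAL5 and 0.322 for PRSS33. COL22A1 was left out of this search because its mean was below an RPKM of 1.

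The other fibrillar and fibril-associated collagens add little. Of 11 further genes, 10 were listed and 3 were tested, and in the 4 comparisons with parental cells 1 was higher in 1 comparison and at most 1 lower in any. COL27A1, a fibrillar collagen known from cartilage, was at 1.75 ± 0.180 RPKM (SD, n = 2) in MDA-MB-231 ERK5-ko against 3.70 ± 0.0670 in parental cells (log2 fold change -0.90, adjusted p = 0.00182). COL19A1 was at 0.189 ± 0.113 RPKM in Hs-578T MEK5DD against 0.555 ± 0.0332 (log2 fold change -0.62, adjusted p = 0.00337), and it was tested only because it was high in Hs-578T parental and ERK5-ko cells.

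Procollagen chains are hydroxylated and glycosylated, folded with the help of chaperones, exported and cut by proteases, and 30 of the 31 genes listed for these steps were tested. In Hs-578T ERK5-ko 4 of the 30 were higher and 13 lower, where 19.7% of all tested genes were called in each direction, with a median log2 fold change of -0.23 against 0.01 for all tested genes. In MDA-MB-231 ERK5-ko 3 were higher and 3 lower, where 6.91% and 10.4% of all tested genes were (median -0.0035, all genes -0.04). In MDA-MB-231 MEK5DD 3 were higher and 14 lower, where 17.5% and 23.8% of all tested genes were (median -0.22, all genes -0.01). In Hs-578T MEK5DD 4 were higher and 7 lower, where 6.44% and 17% of all tested genes were (median -0.07, all genes -0.08).

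ADAMTS14, a protease that removes the amino-terminal propeptide, had the largest change of the list in 3 comparisons and moved in opposite directions in the 2 lines. It was at 1.34 ± 0.157 RPKM (SD, n = 2) in MDA-MB-231 parental cells, 3.03 ± 0.141 in ERK5-ko (log2 fold change 0.94, adjusted p = 0.000983) and 0.164 ± 0.0408 in MEK5DD (-1.47, adjusted p = 7.17e-06). In Hs-578T it was at 8.66 ± 0.976 RPKM in parental cells, 2.92 ± 0.610 in ERK5-ko (-1.43, adjusted p = 1.75e-05) and 19.0 ± 0.614 in MEK5DD (1.09, adjusted p = 0.000315). P3H2, a prolyl 3-hydroxylase, was at 134 ± 6.64 RPKM in Hs-578T parental cells, 54.6 ± 3.70 in MEK5DD (-1.29, adjusted p = 5.31e-06) and 219.9 ± 0.447 in ERK5-ko (0.71, adjusted p = 8.19e-05).

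P3H1 and CRTAP, partners in the complex that 3-hydroxylates proline in fibrillar chains, and PLOD1, a lysyl hydroxylase, were each lower in 3 of the 4 comparisons with parental cells. P3H1 was at 201 ± 1.81 RPKM in Hs-578T parental cells, 148 ± 10.6 in ERK5-ko and 165 ± 2.53 in MEK5DD, and CRTAP at 134 ± 0.901 and 103 ± 4.08 in parental and ERK5-ko cells. In MDA-MB-231, P3H1 and CRTAP were lower in ERK5-ko by log2 fold changes of -0.33 and -0.38 (adjusted p = 0.0213 and 0.00895). PLOD1 was lower in Hs-578T ERK5-ko (-0.39, adjusted p = 0.0130) and in MEK5DD of both lines (-0.78 for MDA-MB-231, adjusted p = 0.000118, and -0.71 for Hs-578T, adjusted p = 0.000795).

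Of the 11 collagen receptors listed, 9 were tested. In ERK5-ko, MDA-MB-231 had 1 of them higher and 3 lower, and Hs-578T 1 higher and 2 lower. In MEK5DD, MDA-MB-231 had 0 higher and 3 lower, and Hs-578T 0 higher and 2 lower. The shares of all tested genes are those given for the procollagen list, and with 9 receptors these counts were not read as a result about them. DDR1, a receptor tyrosine kinase for fibrillar collagen, was at 134 ± 3.35 RPKM in MDA-MB-231 parental cells and 39.9 ± 5.22 in MEK5DD (-1.74, adjusted p = 2.54e-07). ADGRG1, an adhesion receptor that binds type III collagen, was at 115 ± 6.82 RPKM in MDA-MB-231 parental cells, 84.03 ± 0.345 in ERK5-ko and 49.2 ± 0.542 in MEK5DD, and at 20.7 ± 0.913 and 10.3 ± 1.35 in Hs-578T parental and MEK5DD cells. ITGA10, an integrin subunit for collagen, was lower in ERK5-ko of both lines, by -0.61 in MDA-MB-231 (adjusted p = 0.0267) and -1.29 in Hs-578T (adjusted p = 0.000123).

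**Figure D5:**
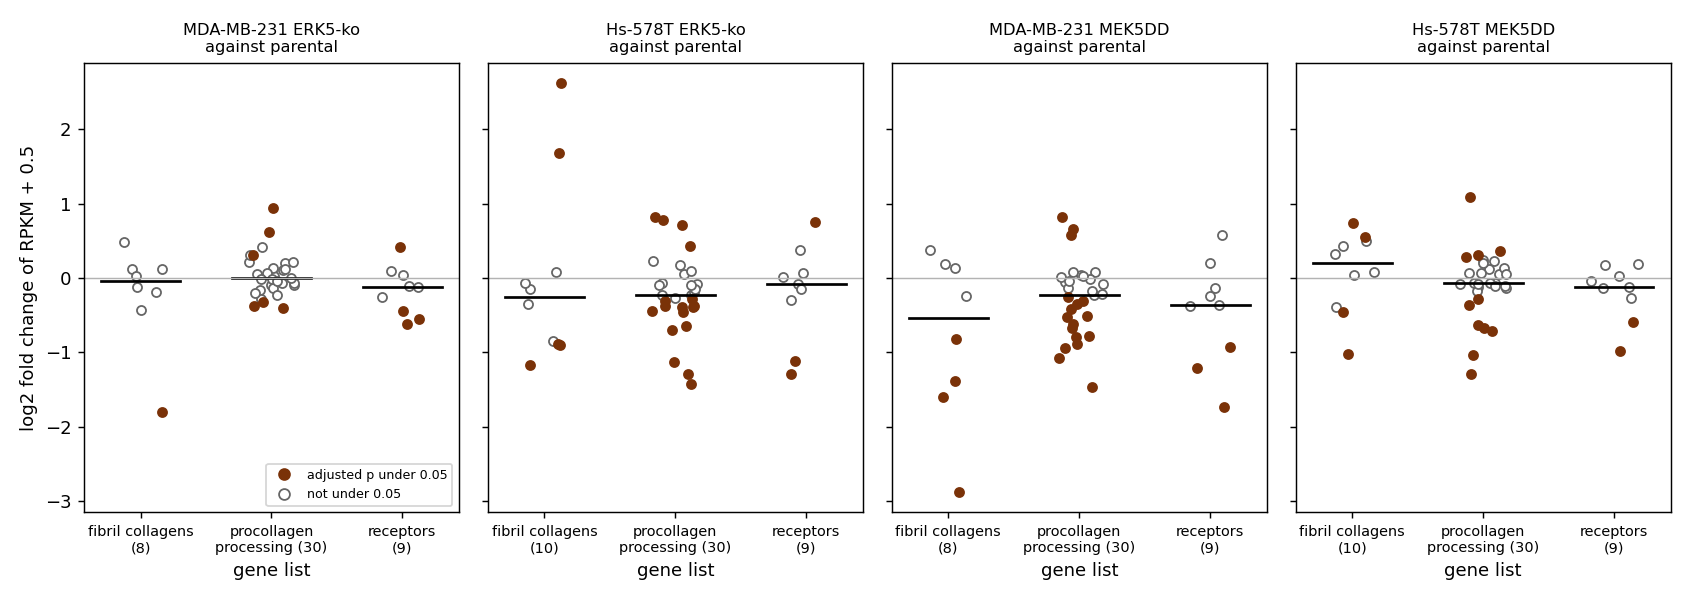
Log2 fold change of the fibril collagens with reads, of 30 genes of procollagen synthesis and processing and of 9 collagen receptors in the 4 comparisons with parental cells, with filled points at an adjusted p under 0.05 and a line at the median. The fibril collagens include the largest decreases in MDA-MB-231 and the largest increases in Hs-578T ERK5-ko. The highest of these increases is that of COL22A1, which was tested only because it was high in the Hs-578T ERK5-ko libraries.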

How the data were processed

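RNA-seq gave 12 libraries of MDA-MB-231 or Hs-578T cells, 2 for each of 6 groups taken from the sample labels. The deposited values are RPKM per gene on GRCh38, and per the labels and the submitters' processing notes the authors prepared libraries with a stranded mRNA kit and used bcl2fastq, Trimmomatic 0.32, TopHat2 2.1.1, R 3.3.1 and DESeq2 1.12.4. The role of each tool is not given in the sources used here. Every value of all 32152 genes was a whole multiple of the worth of 1 read (relative tolerance 1e-08), so whole reads were recovered, with totals of 20248162 to 27791195. The RPKM lengths lay within 5% of the mean GENCODE 29 transcript length for 99.1% of 27628 genes with the same identifier, so levels depend on that length when genes are compared.

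Values were tested as log2(RPKM + 0.5) with limma 3.58.1 in R 4.3.3, with a mean-variance trend and 6 group means, over the 13737 protein-coding genes that reached an RPKM of 0.5 in 2 or more libraries. P-values were adjusted by Benjamini-Hochberg within each comparison, and a gene is called at an adjusted p under 0.05. The labels do not say that the 2 libraries of a group were separate cultures, so p-values measure only the spread between these samples. An exact permutation test of 2 against 2 cannot go below 0.333. Samples of the same number within a line deviated together, with correlations of 0.107 to 0.541 over all 6 pairs of groups, and the fit with the replicate number as a block was run beside the one without. Counting limits set the low group to a floor of 3 reads in each library. They leave out the counting error of the other group and the spread between libraries.

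Alternatives were pseudocounts of 0.1 and 1, no filter and a filter at an RPKM of 1, median-ratio scaling, quantile normalization, each line fitted alone, the replicate block, limma voom on the recovered reads, and leaving out each library. The 10 genes and the gene lists were chosen with earlier results of these data known. The text names the 10 genes, from each list the genes that changed in the same direction in at least 3 of the 4 comparisons with parental cells and the gene with the largest change in each, and, for each of the 10 with a mean RPKM of at least 1, the 3 genes with the highest correlation. Scripts were tested on simulated data. Python 3.11.15, pandas 2.3.3 and matplotlib 3.10.9 were used for the rest.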

Additional observations from a re-analysis of the deposited data

Results flagged for a closer look

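The ERK5-ko or MEK5DD log2 fold change differed between the lines, by the test of the difference itself (MDA-MB-231 minus Hs-578T, limma, adjusted p under 0.05), in 11 cases. They are 5 of the 10 genes for ERK5-ko, where 18.3% of all tested genes had a positive and 21.5% a negative difference, and 6 for MEK5DD, where the shares were 21.3% and 18.2%. For ERK5-ko the difference was 1.38 for COL5A1, 1.01 for COL1A1, 1.06 for COL3A1, -1.87 for COL14A1 and -2.62 for COL22A1. For MEK5DD it was -2.13 for COL16A1, -2.10 for COL5A1, -3.30 for COL1A2, -1.37 for COL1A1, 1.02 for COL5A3 and 0.46 for COL22A1. COL5A3 and COL22A1 had 0 reads in all MDA-MB-231 libraries, so their differences are the Hs-578T values with the sign turned. COL22A1 reached an RPKM of 0.5 only in the 2 Hs-578T ERK5-ko libraries, so its ERK5-ko difference was tested only because it was high there.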

How the results depend on the processing

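Of 48 calls of the 10 genes over 9 comparisons, 36 were kept under every fit that could be made for them, up to 9 settings and 12 fits that each left out 1 library, and 12 were lost under at least 1. Comparisons between the lines have no fit of a line alone. Of 35 results that were not called, 18 passed under at least 1. The replicate block raised the number higher in MDA-MB-231 ERK5-ko from 0 to 1 (COL5A1), and apart from COL5A1 and COL14A1 in Hs-578T MEK5DD it changed no other call. With each line fitted alone, 1 gene was higher and 2 lower in MDA-MB-231 ERK5-ko, 1 higher in MDA-MB-231 MEK5DD, and 1 higher and 1 lower in Hs-578T MEK5DD. A pseudocount of 0.1 gave 2 lower in MDA-MB-231 ERK5-ko, voom gave 5 lower in Hs-578T ERK5-ko and 0 positive differences between the lines for MEK5DD, and no filter gave 0 lower in MDA-MB-231 ERK5-ko against MEK5DD. Quantile normalization gave 1 higher in Hs-578T MEK5DD, 3 lower in Hs-578T ERK5-ko against MEK5DD, and 1 positive difference between the lines for each of ERK5-ko and MEK5DD. Under it the calls of COL1A1 in Hs-578T, and of its differences between the lines, were lost. This method sets a value by its rank in the library, and COL1A1 was at 5818 to 18528 RPKM in Hs-578T. Its log2 fold change under it was 0 in MEK5DD against parental cells, so these losses cannot decide whether its RPKM differed. With the longest transcript as length, chosen after seeing the data, the mean ratio in Hs-578T parental cells was 1.36 for COL1A1 to COL1A2 and 1.42 for COL5A1 to COL5A2.

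The difference between the lines turned for COL3A1 under ERK5-ko with voom (-0.31), and under MEK5DD for COL5A2 (-0.0084 with a pseudocount of 1, -0.0501 with median-ratio scaling), COL12A1 (-0.0142 with median-ratio scaling) and COL14A1 (-0.50 with a pseudocount of 0.1, -0.0122 with quantile normalization, -3.69 with voom). The cause was not tested.

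Leaving out 1 library at a time, the counts in MDA-MB-231 ranged from 0 to 1 higher for ERK5-ko, 0 to 1 higher for MEK5DD and 0 to 1 lower for ERK5-ko against MEK5DD. In Hs-578T they ranged from 1 to 3 higher for ERK5-ko and, for MEK5DD, from 1 to 4 higher and 1 to 3 lower. Differences between the lines ranged from 1 to 3 negative for ERK5-ko and 1 to 2 positive for MEK5DD. COL22A1 fell below the filter without either Hs-578T ERK5-ko library, so its calls were not tested there. Uncalled log2 fold changes that turned ranged from -0.0451 to 0.11 (COL5A2, MDA-MB-231 ERK5-ko), -0.32 to 0.0226 (COL5A2), -0.15 to 0.0168 (COL5A3) and -0.51 to 0.68 (COL12A1) in Hs-578T ERK5-ko, and -0.11 to 0.50 (COL3A1, MDA-MB-231 MEK5DD). In Hs-578T MEK5DD they ranged from -0.12 to 0.20 (COL3A1), -0.12 to 0.29 (COL5A2) and -0.27 to 0.92 (COL12A1), and against ERK5-ko from -0.53 to 0.0371 (COL12A1). Differences between the lines ranged from -0.0168 to 0.15 (COL5A3) and -1.105 to 0.0871 (COL12A1) for ERK5-ko, and from -0.15 to 0.46 (COL3A1), -0.16 to 0.25 (COL5A2), -0.54 to 0.65 (COL12A1) and -0.0681 to 0.38 (COL14A1) for MEK5DD. Depth limits COL3A1, COL14A1, COL5A3 and COL22A1 in MDA-MB-231, where at most 17 reads were found.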

Other observations

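The 10 genes took between 0.0225% and 0.0571% of all reads in the MDA-MB-231 libraries. In Hs-578T they took 1.71% and 1.58% in ERK5-ko and 3.57% and 4.37% in MEK5DD, so the share of a whole library that is collagen RNA differed between groups there.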
